A study of Mus musculus with 10 samples.

Results

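Cells build the purine and pyrimidine rings of their nucleotides from amino acids, carbon dioxide and, for the purine ring, folate-borne carbon. Here 10 genes of these routes were followed in sorted mouse haematopoietic stem cells with and without a knockout of Dhx16, a DEAH-box helicase of the spliceosome. The members were taken by gene symbol, and all 10 were found among the 52097 genes of the deposited table. They comprise the 7 purine genes Ppat, Gart, Pfas, Paics, Adsl, Atic and Impdh2 and the 3 pyrimidine genes Cad, Dhodh and Umps. RNA came from about 5000 bone marrow cells per sample, sorted as lineage-negative, Sca-1+, c-Kit+, CD48- and CD150+, and was copied and amplified with a Smart-Seq V4 kit. The 5 controls are titled Dhx16_fl with the genotype WT, and the 5 knockouts are titled Dhx16_CKO with the genotype KO, so the comparison asks how the loss of Dhx16 changes the RNA of these cells. The abbreviations fl and CKO are not spelled out, and no Cre driver, age or separate animal per sample is named in the labels used here, so p-values measure only the spread between samples.

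In the purine route a phosphoribosyl pyrophosphate molecule (PRPP) receives its first nitrogen from glutamine and the ring is then closed in a series of steps that end at inosine monophosphate, the common precursor of adenine and guanine nucleotides. In the pyrimidine route the ring is finished as orotate before it is joined to PRPP and becomes uridine monophosphate. Stem cells at rest can draw largely on salvage of ready-made bases, while dividing blood cells depend more on new synthesis, and drugs against several of these enzymes suppress blood cell division.

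Levels are in FPKM, which count fragments per length of transcript and per size of library, so that different genes can be set side by side. Each library is named as its column is, WT2 to WT6 for control and CKO7, CKO8, CKO9, CKO12 and CKO13 for knockout. Sums of FPKM over all genes ranged from 770789 to 966648 per library, and sequencing depth is unknown because no counts per library are given. Means are given ± SD with n = 5 in each group. Changes are differences in log2 (FPKM + 1), knockout minus control, with a standard error (SE), and a gene was called at an adjusted p under 0.05 in limma across the 6913 genes that reached 10 FPKM in at least 5 libraries. The mean of Dhx16 itself was 17.5 ± 3.81 FPKM in controls and 9.49 ± 1.56 FPKM in knockouts, a change of -0.81 (limma adjusted p = 0.000638), and the groups did not overlap. The labels do not say which exons were deleted, so this value may include reads outside them. Across tested genes the median change was -0.12 without any further scaling, so a change is also given relative to that median for several members.

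Genes of purine synthesis rose in the knockout, from Ppat at the entry of the route to Impdh2 at the branch to guanine nucleotides, with the exception of Atic, whose change did not pass the test. Impdh2, Pfas, Gart and Paics were each 1.78-fold to 1.88-fold higher by the ratio of the means, and Ppat and Adsl were 1.53-fold and 1.34-fold higher. In the pyrimidine route Umps was 1.45-fold higher, while Cad varied widely between libraries and Dhodh was nearly level. In all, 7 of the 10 members were called higher and 0 lower, where 21.1% of all tested genes were called higher and 31.6% lower. All 10 members passed the filter on low values. In 4 members (Gart, Paics, Impdh2 and Umps) every knockout library lay above every control library, which held for 12.9% of all tested genes, and 22.1% of them had every knockout library below every control library. The median change of the 10 members was 0.65 against -0.12 for all tested genes.

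**Figure D1:**
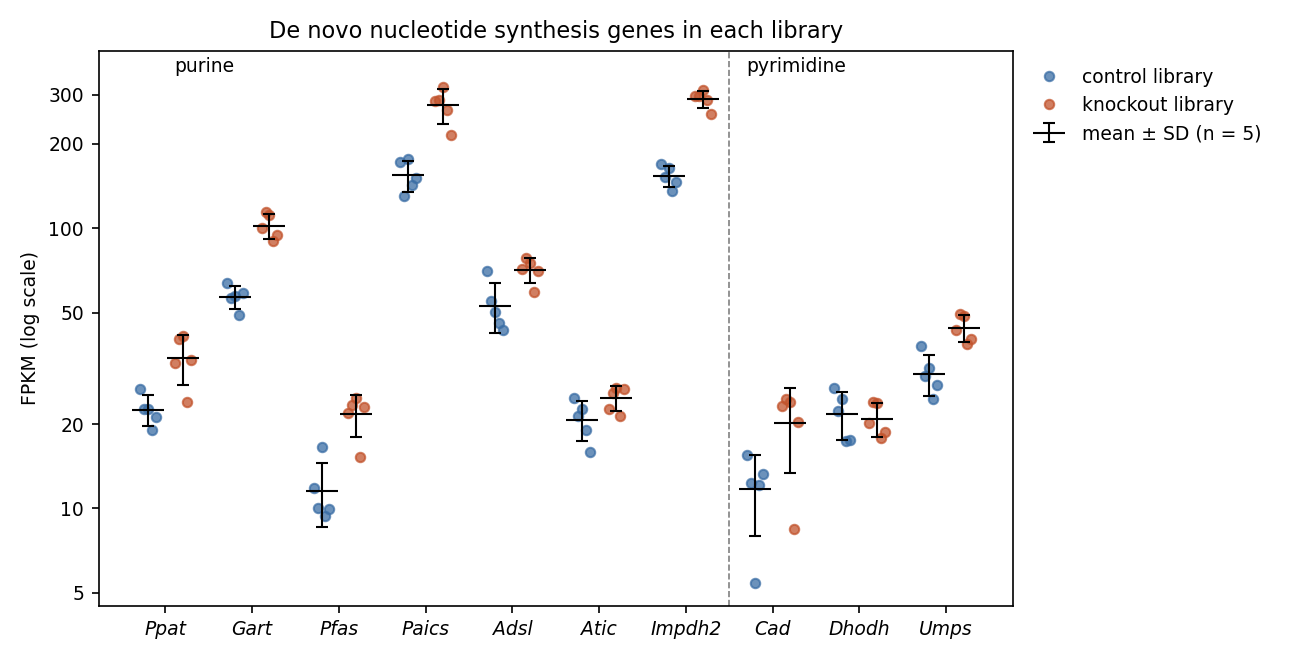
FPKM (log axis) of the 10 members in each of 5 control and 5 knockout libraries, with purine genes left and pyrimidine genes right of the dashed line and black bars for the mean ± SD. Control and knockout libraries are apart for Gart, Paics, Impdh2 and Umps, and overlap for the other members, with single low points for Cad in WT4 (5.42 FPKM) and CKO12 (8.47 FPKM).

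Ppat (ENSMUSG00000029246, mm10 chr5:76913249-76951578) encodes amidophosphoribosyltransferase, which commits PRPP to purine synthesis and is inhibited by the end products AMP and GMP. In control libraries it was at 26.8, 22.7, 22.7, 19.1 and 21.3 FPKM (WT2 to WT6) and in knockout libraries at 33.1, 40.2, 41.3, 23.9 and 34.0 FPKM (CKO7, CKO8, CKO9, CKO12 and CKO13). The groups overlapped only through CKO12, which lay below WT2 alone. The means were 22.5 ± 2.81 and 34.5 ± 6.95 FPKM, a change of 0.58 (SE 0.15, limma adjusted p = 0.00394, exact permutation p = 0.0159), or 0.69 above the median gene.

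Gart (ENSMUSG00000022962, mm10 chr16:91621186-91646952) encodes a protein with 3 activities of the early ring assembly, one of which adds a folate-borne formyl group. It was at 63.9, 56.3, 57.2, 48.8 and 58.6 FPKM in control and at 100.5, 113.9, 111.8, 90.4 and 94.4 FPKM in knockout libraries. The groups were well apart, with a gap between WT2 and CKO12. The change was 0.83 (SE 0.11, limma adjusted p = 3.41e-05, exact permutation p = 0.00794, the smallest that 5 against 5 samples can give), from 57.0 ± 5.42 to 102 ± 10.4 FPKM. An antisense gene, Gm15964, shares 1014 exon bases with Gart on the other strand, and the strand setting of the counting is not given in the sources used here.

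Pfas (ENSMUSG00000020899, mm10 chr11:68985697-69008460) encodes phosphoribosylformylglycinamidine synthase, which brings in a nitrogen from glutamine. It had the lowest mean of the 10 in control libraries, at 11.8, 10.1, 16.6, 9.40 and 9.99 FPKM, and was at 22.0, 23.5, 24.8, 15.2 and 23.1 FPKM in knockout libraries. WT4 was the highest control and CKO12 the lowest knockout library, and the groups overlapped through these alone. The means were 11.6 ± 2.94 and 21.7 ± 3.77 FPKM, a change of 0.86 (SE 0.17, limma adjusted p = 0.000568, exact permutation p = 0.0159).

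Paics (ENSMUSG00000029247, mm10 chr5:76951307-76967509) encodes a protein that carries out the carboxylation and the joining of aspartate that follow. It was among the most abundant members, at 172, 130.1, 176, 142 and 152 FPKM in control and at 286, 288, 320, 265 and 215 FPKM in knockout libraries. No knockout library was as low as the highest control library, WT4. Its change was 0.82 (SE 0.13, limma adjusted p = 0.000157, exact permutation p = 0.00794), from 155 ± 19.5 to 275 ± 38.6 FPKM.

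Paics and Ppat lie head to head on opposite strands of chromosome 5, and their annotated genes overlap at the 5′ ends, where they share 272 exon bases. Reads from that stretch cannot be told apart without strand. The ratio of Paics to Ppat within a library, a measure that the scaling of the libraries hardly touches, was 2.73 ± 0.17 in control and 2.97 ± 0.30 in knockout libraries on the log2 scale. The difference of 0.24 did not pass the exact permutation test (p = 0.159, adjusted p = 0.159 over 5 pairs of genes), and the ranges overlapped, at 2.47 to 2.90 and 2.63 to 3.42.

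Adsl (ENSMUSG00000022407, mm10 chr15:80948490-80970946) encodes adenylosuccinate lyase, which releases fumarate both during ring assembly and in the formation of AMP. It was at 70.4, 55.0, 50.1, 46.1 and 43.2 FPKM in control and at 71.5, 78.6, 75.2, 59.4 and 70.2 FPKM in knockout libraries. WT2 stood above the other controls and reached into the knockout range. The means were 53.0 ± 10.7 and 71.0 ± 7.28 FPKM, a change of 0.43 (SE 0.14, limma adjusted p = 0.0143, exact permutation p = 0.0238) that lost its call in 3 of 23 alternative settings. These were equal library totals (0.29, limma adjusted p = 0.129), scores of bone matrix and granulocyte genes in the fit (0.30, limma adjusted p = 0.129) and no filter (limma adjusted p = 0.0626).

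Atic (ENSMUSG00000026192, mm10 chr1:71557150-71579631) encodes the protein that adds the last formyl group and closes the second ring to give inosine monophosphate. It was at 24.7, 21.4, 22.6, 19.1 and 16.0 FPKM in control and at 22.7, 25.9, 27.0, 21.5 and 26.8 FPKM in knockout libraries, and the groups overlapped broadly. Its change of 0.25 (SE 0.13) did not pass the test (limma adjusted p = 0.116, exact permutation p = 0.0556), and the means were 20.8 ± 3.35 and 24.8 ± 2.51 FPKM. It was called higher under the 2 scalings that raise the knockout libraries, median-of-ratios factors (0.62) and the authors' scaling, a shift of the libraries to the authors' fold changes (0.64).

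Impdh2 (ENSMUSG00000062867, mm10 chr9:108560286-108565584) encodes the inosine monophosphate dehydrogenase that is induced in dividing cells and controls entry into guanine nucleotides. It was at 170.2, 152, 164, 136 and 146 FPKM in control and at 296, 296, 312, 287 and 255 FPKM in knockout libraries. The lowest knockout library, CKO13, was far above the highest control library, WT2. Its change was the largest of the 10 members, 0.91 (SE 0.11, limma adjusted p = 1.89e-05, exact permutation p = 0.00794), from 154 ± 13.7 to 289 ± 20.8 FPKM, or 1.03 above the median gene. Of all tested genes, 94.3% had a smaller change. It shares 48 exon bases with Ndufaf3 on the other strand.

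Promoter windows from RefSeq (GRCm38.p6, which has the coordinates of mm10), 250 bases before to 50 after the annotated start, matched 8 of the 10 members, all but Pfas and Dhodh. The windows are shown because MYC and MAX, which bind the E-box CACGTG, are known activators of purine synthesis genes. CACGTG, which reads the same on both strands, was found in 3 of the 8 windows, those of Paics, Impdh2 and Atic, in 13.1% of the tested genes with a window, and in 7.15% of all 32851 windows. Capitals mark it in the sequences, and the window of Gart, whose change of 0.83 was close to the 0.82 of Paics and which lacks these letters, is given beside them.
Paics, chr5:76951052-76951351, plus strand: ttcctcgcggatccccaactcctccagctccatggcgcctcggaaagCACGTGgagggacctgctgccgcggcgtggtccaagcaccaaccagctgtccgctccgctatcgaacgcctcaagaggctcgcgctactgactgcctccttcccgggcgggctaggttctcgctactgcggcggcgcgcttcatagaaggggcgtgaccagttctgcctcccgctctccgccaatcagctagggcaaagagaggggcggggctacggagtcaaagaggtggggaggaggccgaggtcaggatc
Impdh2, chr9:108560186-108560485, plus strand: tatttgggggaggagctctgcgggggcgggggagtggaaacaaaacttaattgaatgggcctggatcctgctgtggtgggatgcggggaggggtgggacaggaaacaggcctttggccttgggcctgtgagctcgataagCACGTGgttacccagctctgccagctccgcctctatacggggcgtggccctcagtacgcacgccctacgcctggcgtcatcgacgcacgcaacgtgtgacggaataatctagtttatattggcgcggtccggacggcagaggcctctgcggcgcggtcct
Atic, chr1:71556906-71557205, plus strand: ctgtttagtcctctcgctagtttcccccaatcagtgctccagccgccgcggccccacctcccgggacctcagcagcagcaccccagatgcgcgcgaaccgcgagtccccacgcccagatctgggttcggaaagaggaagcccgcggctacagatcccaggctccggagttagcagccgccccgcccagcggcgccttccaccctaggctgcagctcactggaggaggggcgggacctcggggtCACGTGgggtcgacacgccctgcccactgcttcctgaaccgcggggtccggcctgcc
Gart, chr16:91646923-91647222, minus strand: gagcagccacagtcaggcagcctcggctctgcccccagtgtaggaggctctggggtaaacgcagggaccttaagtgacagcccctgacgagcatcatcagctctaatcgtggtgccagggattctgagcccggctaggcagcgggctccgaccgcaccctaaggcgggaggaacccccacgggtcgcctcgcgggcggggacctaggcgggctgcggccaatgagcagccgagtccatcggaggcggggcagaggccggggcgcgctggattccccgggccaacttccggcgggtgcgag
The E-box began 203 bases before the start of Paics, 110 bases before that of Impdh2 and 7 bases before that of Atic. These starts are those of RefSeq. That of Impdh2 (108560436) lies inside the gene coordinates given above, which begin at 108560286, and so does its E-box. The whole window of Paics, with its E-box, lies inside the coordinates of Ppat given above, which end at 76951578. Of the 3 genes with CACGTG in their own window Paics and Impdh2 were called higher and Atic was not. Of the 5 windows without it those of Ppat, Gart, Adsl and Umps belong to genes called higher and that of Cad to a gene that was not. Among tested genes with a window, 21.4% of 697 genes with CACGTG and 20.6% of 4607 without it were called higher. The box CCAAT, searched on both strands, was in the windows of Paics, Impdh2, Atic and Gart, in 43.6% of the tested genes with a window and in 37.4% of all windows. These matches are descriptions of the letters and not of binding.

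Cad (ENSMUSG00000013629, mm10 chr5:31054780-31078479) encodes the large protein that carries out the opening steps of pyrimidine synthesis, among them the carbamoyl phosphate synthetase reaction that growth signals control. It was at 15.5, 12.4, 5.42, 12.2 and 13.2 FPKM in control and at 23.2, 24.6, 24.0, 8.47 and 20.3 FPKM in knockout libraries. Apart from WT4 and CKO12 the groups did not overlap, with controls up to 15.5 and knockouts from 20.3 FPKM. The means were 11.7 ± 3.77 and 20.1 ± 6.72 FPKM, and the change of 0.71 (SE 0.33) was not called (limma adjusted p = 0.0917, exact permutation p = 0.0714). Without CKO12 the change was 0.98 (limma adjusted p = 0.00338), without WT4 alone it was 0.48 and not called (limma adjusted p = 0.155), and without WT4 and CKO12 together, an alternative chosen after seeing the data, it was 0.75 (limma adjusted p = 0.000217).

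In WT4 and CKO12 long transcripts lay below short ones. Among 1315 tested genes with 7000 exon bases or more, a class that holds Cad (8183 exon bases), Atic (7985) and Pfas (7933), the median deviation from the group mean was -0.05 in WT4 and -0.15 in CKO12 on the log2 scale. Among 1319 genes under 2000 exon bases it was 0.38 and 0.03. The deviations of Cad were -0.92 and -1.07, and those of Pfas 0.51 and -0.47, so these long genes did not move alike in WT4. The part of transcript length in these values was not tested.

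**Figure D2:**
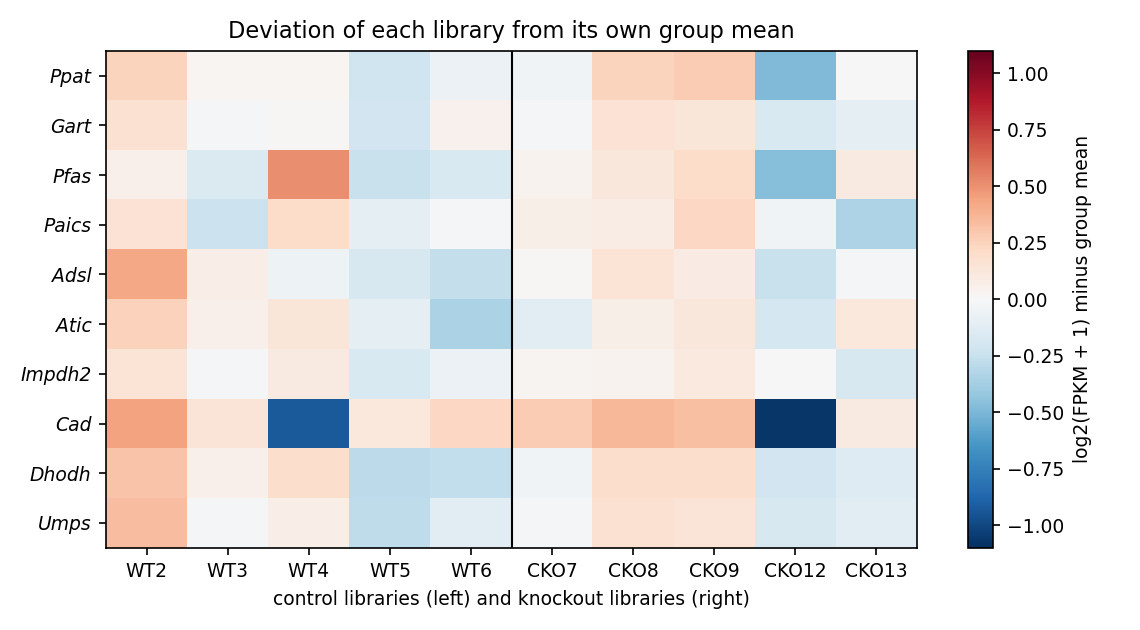
Heat map of each member (rows) in each library (columns) as log2 (FPKM + 1) minus the mean of its own group, red above and blue below that mean. Cad in WT4 (-0.92) and in CKO12 (-1.07) stands out, WT2 is above its group mean and WT5 mostly below it.

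Dhodh (ENSMUSG00000031730, mm10 chr8:109591343-109608673) encodes dihydroorotate dehydrogenase, the only enzyme of the route in the inner mitochondrial membrane, which passes electrons to ubiquinone. It was at 26.9, 22.3, 24.6, 17.4 and 17.6 FPKM in control and at 20.2, 24.0, 23.9, 17.8 and 18.8 FPKM in knockout libraries, and the groups covered the same range. The means were 21.8 ± 4.23 and 20.9 ± 2.87 FPKM, a change of -0.04 (SE 0.15, limma adjusted p = 0.816, exact permutation p = 0.778), which is 0.07 above the median gene. The sign turned under median-of-ratios factors, where the change was 0.33 and was called (limma adjusted p = 0.0342), and under the authors' scaling, where it was 0.34 and was not called.

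Umps (ENSMUSG00000022814, mm10 chr16:33954782-33967038) encodes the protein that joins orotate to PRPP and decarboxylates the product to uridine monophosphate. It was at 38.1, 29.6, 31.6, 24.5 and 27.6 FPKM in control and at 43.3, 49.4, 48.6, 38.7 and 40.2 FPKM in knockout libraries. All knockout libraries were above all control libraries, though CKO12 and WT2 nearly met. The change was 0.53 (SE 0.13, limma adjusted p = 0.00287, exact permutation p = 0.00794), from 30.3 ± 5.11 to 44.0 ± 4.84 FPKM. An antisense gene, Gm15829, shares 213 exon bases with it.

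The order of the levels was much the same in both groups. In control libraries Paics and Impdh2 led and overlapped each other, at 155 and 154 FPKM, and both were clear of Gart and Adsl, at 57.0 and 53.0 FPKM, which again overlapped. Umps, Ppat, Dhodh and Atic followed between 30.3 and 20.8 FPKM, each overlapping its neighbour, and Cad and Pfas were lowest at 11.7 and 11.6 FPKM. In knockout libraries Impdh2 and Paics were at 289 and 275 FPKM, Gart at 102 and Adsl at 71.0 FPKM no longer overlapped, and Pfas, Dhodh and Cad lay together at 21.7, 20.9 and 20.1 FPKM.

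The members did not all move by the same amount. For each of the 45 pairs of members the log2 ratio within a library was compared between groups by an exact permutation test, with Benjamini-Hochberg adjustment over the 45 pairs, a comparison added after seeing the data. The ratio differed for 18 pairs, with adjusted p-values of 0.0298 or 0.0397. The ratio to Dhodh was higher in the knockout for 8 of the other 9 members, all but Cad. The ratio of Impdh2 to Dhodh was 2.78 in control and 3.73 in knockout libraries, and that of Umps to Dhodh, the enzyme just before it, moved by 0.58 with no overlap between groups. Impdh2 and Gart each gained on 5 other members (Ppat, Adsl, Atic, Dhodh and Umps), and Atic lost ground to Gart, Pfas, Paics and Impdh2. No pair with Cad passed.

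Libraries deviated together across the members. WT2 was the highest control library for 8 of the 10 members and WT5 the lowest for 6, and CKO12 was the lowest knockout library for 8. The median deviation of the members from the group mean was 0.25 in WT2, -0.19 in WT5 and -0.20 in CKO12, where that of all tested genes was 0.15, -0.07 and -0.06. A score of 12 genes of dividing cells, the mean log2 (FPKM + 1), was lowest in the same libraries, at 5.55 in WT5 and 6.88 in CKO12.

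The size of each member's change depended on how libraries were scaled. The median gene moved by -0.25 under equal totals, by -0.13 under upper-quartile factors, by 0.25 under median-of-ratios factors and by 0.26 under the authors' scaling. In the same order 6, 7, 10 and 9 members were called higher, where 15.3%, 23.1%, 44.2% and 43.3% of all tested genes were. Of all called genes 40.1% were higher without further scaling, and 28.3%, 39.6%, 78.9% and 78.5% under these scalings. Gart, Paics, Impdh2, Pfas, Ppat and Umps were called higher under each of these 5 ways of scaling. In the authors' deposited table, made with DESeq2, all 10 members were higher at an adjusted p under 0.05, with log2 fold changes from 0.36 for Dhodh to 1.37 for Impdh2. That table called 17.1% of its 23405 tested genes higher, and 44.5% of those genes also tested here. Its mean normalized counts ranged from 502 for Dhodh to 6063 for Paics.

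**Figure D3:**
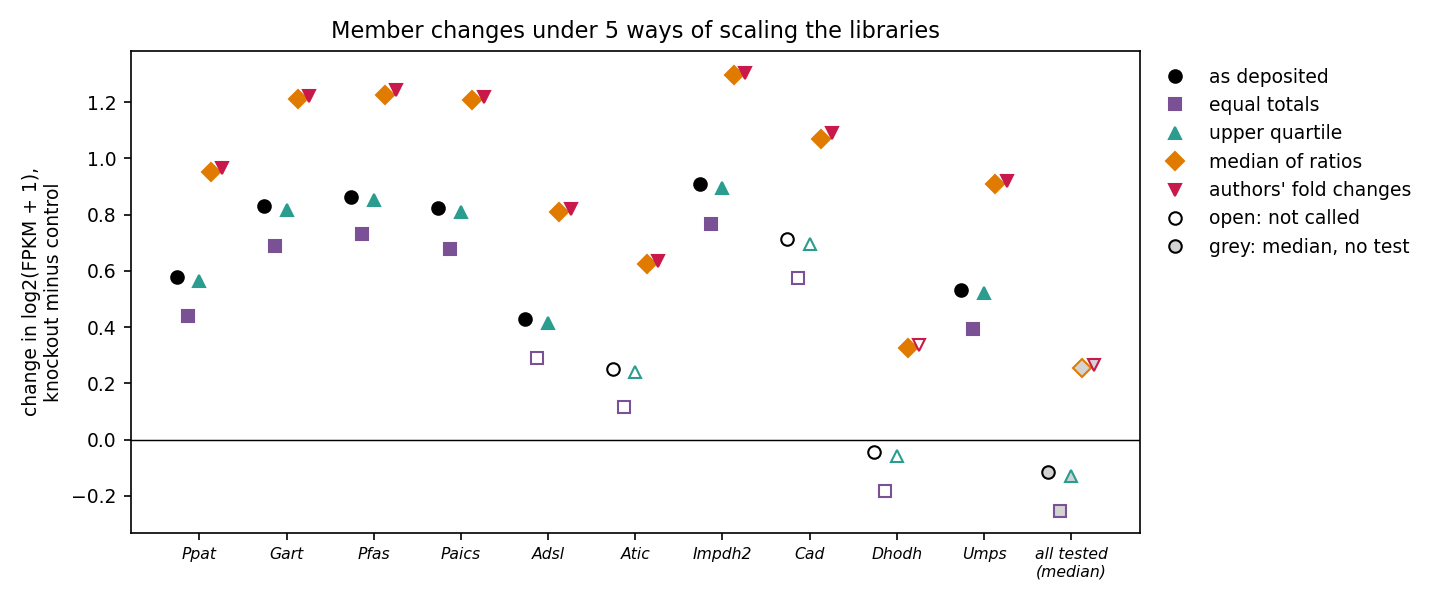
Change of each member in log2 (FPKM + 1), knockout minus control, under 5 ways of scaling the libraries, with filled symbols for calls at an adjusted p under 0.05 and, at the right, the median of all tested genes. Impdh2 ranges from 0.77 to 1.31 and is called under each, and Dhodh ranges from -0.18 to 0.34.

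Genes of dividing cells and of red cell precursors were also higher in the knockout. The calls of each marker list stand against 21.1% of all tested genes called higher and 31.6% called lower. All 11 tested of 12 genes of dividing cells were called higher, and their summed level was 731 to 1091 FPKM in control and 1869 to 2357 FPKM in knockout libraries. All 8 erythroid markers were called higher, with sums of 120 to 397 and 753 to 1177 FPKM. Ermap, Rhd and Rhag reached 10 FPKM in no control library but WT3 and WT6, and Klf1 and Car1 in all controls but WT5. These genes passed the filter only with their knockout libraries, so the count of erythroid calls is not a result about that list. Blvrb, Hemgn and Fech were above 10 FPKM in every library. Stem cell markers were present in every library, and 5 of 7 tested were called lower, with sums of 587 to 869 and 412 to 642 FPKM. Of these 5, Procr and Mecom were not called under median-of-ratios factors or the authors' scaling. Kit (-0.36, limma adjusted p = 0.144) and Ly6a (0.11, limma adjusted p = 0.692), the genes of c-Kit and Sca-1, were not called. Macrophage markers summed to 117 to 272 and 10.6 to 27.5 FPKM, and the 3 tested were called lower. Of these, C1qa and C1qc reached 10 FPKM in control libraries alone, and C1qb in no knockout library but CKO9 (11.3 FPKM). The filter thus admitted genes of this list only where controls were high, so the count of calls is not a result about the list. Bone matrix markers (3180 to 65871 and 4549 to 47778 FPKM) and granulocyte markers (9623 to 74170 and 8348 to 40842 FPKM) varied widely in both groups, and 0 of 6 tested were called in each list. Lymphocyte markers summed to 30.3 to 48.4 and 18.6 to 31.6 FPKM, with 3 of 6 under 1 FPKM in all libraries, and the 1 tested, Cd79b, was called lower (-0.61, limma adjusted p = 0.00657), a call not made under those 2 scalings. No marker of any list was at 0 in all libraries. In bulk samples a change in the share of a cell type and a change in RNA per cell cannot be told apart. The part of these cells in the members' changes was not tested.

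Other genes around the members were counted from lists of 67 genes, of which 51 were tested, 17 called higher and 13 lower, with a median change of -0.00. The counts of each list stand against 21.1% of all tested genes called higher and 31.6% called lower. The enzymes that load carbon onto folate for the purine ring had the highest median of the 7 lists. Of 5 tested one-carbon genes 4 were called higher and 0 lower, with a median of 0.89. Every knockout library lay above every control library in all 4, which held for 12.9% of all tested genes. Mthfd1, the cytosolic enzyme that makes the formyl donor of Gart and Atic, rose from 35.2 ± 6.44 to 121 ± 19.1 FPKM (1.75, limma adjusted p = 1.7e-06). The mitochondrial enzymes Mthfd2 rose from 9.73 ± 2.67 to 20 ± 4.69 FPKM, Mthfd1l from 11.1 ± 1.94 to 21.4 ± 3.11 and Shmt2, which takes the carbon from serine, from 70.5 ± 9.49 to 112 ± 12.7. Each held its call under the 4 other scalings, and the fifth gene, Shmt1, was at 16.9 ± 4.46 and 17.7 ± 2.39 FPKM.

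The list for PRPP supply holds 4 genes, the synthetases Prps1 and Prps2 and genes of proteins associated with the synthetase. Only Prps1 was called, from 74.1 ± 13.3 to 97.1 ± 8.77 FPKM (0.40, limma adjusted p = 0.0179). This call was lost with equal totals (0.26) and without WT5 or CKO8. The related Prps2 was at 15 ± 1.68 and 15.7 ± 2.13 FPKM and was called under median-of-ratios factors and the authors' scaling. The ratio of Prps1 to Prps2 moved by 0.34, which missed the threshold (exact permutation p = 0.0556, adjusted p = 0.0694 over 5 pairs) and passed without WT4 (0.44, adjusted p = 0.0198).

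Of 6 other genes of new synthesis 2 were called higher and 3 lower. Gmps, which turns xanthosine monophosphate into GMP after Impdh2, rose from 12.5 ± 1.66 to 18.4 ± 2.88 FPKM, and Ctps, a CTP synthetase, from 17.8 ± 5.19 to 29.3 ± 5.93 FPKM. Gmps lost its call with equal totals. The second CTP synthetase, Ctps2, fell from 57.5 ± 3.0 to 43.5 ± 6.80 FPKM and Adssl1, an adenylosuccinate synthetase best known from muscle, from 34.7 ± 2.89 to 18.8 ± 4.25 FPKM. Impdh1, the constitutive partner of Impdh2, was at 33.6 ± 4.44 and 27.1 ± 2.17 FPKM (-0.30, limma adjusted p = 0.0425), and it and Ctps2 were not called under median-of-ratios factors or the authors' scaling, where the change of Impdh1 turned to 0.079 and 0.088. Its call was also lost without any single one of WT2, WT3, WT6, CKO7, CKO8, CKO9 or CKO12. The main adenylosuccinate synthetase, Adss, was at 34.9 ± 6.28 and 33.2 ± 3.99 FPKM (-0.06, not called), and at 0.32 it was called higher under median-of-ratios factors.

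Within libraries the balance between isozymes shifted. The log2 ratio of Impdh2 to Impdh1 was 2.03 to 2.30 in control and 3.03 to 3.52 in knockout libraries, a difference of 1.21. That of Ctps to Ctps2 was -2.08 to -1.29 and -0.77 to -0.34, a difference of 1.11, so Ctps2 remained the more abundant. That of Adss to Adssl1 was -0.40 to 0.30 and 0.45 to 1.15, a difference of 0.81. The groups did not overlap in these 3 ratios (exact permutation p = 0.00794 and adjusted p = 0.0132 over 5 pairs for each, in 5 knockout against 5 control libraries).

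**Figure D4:**
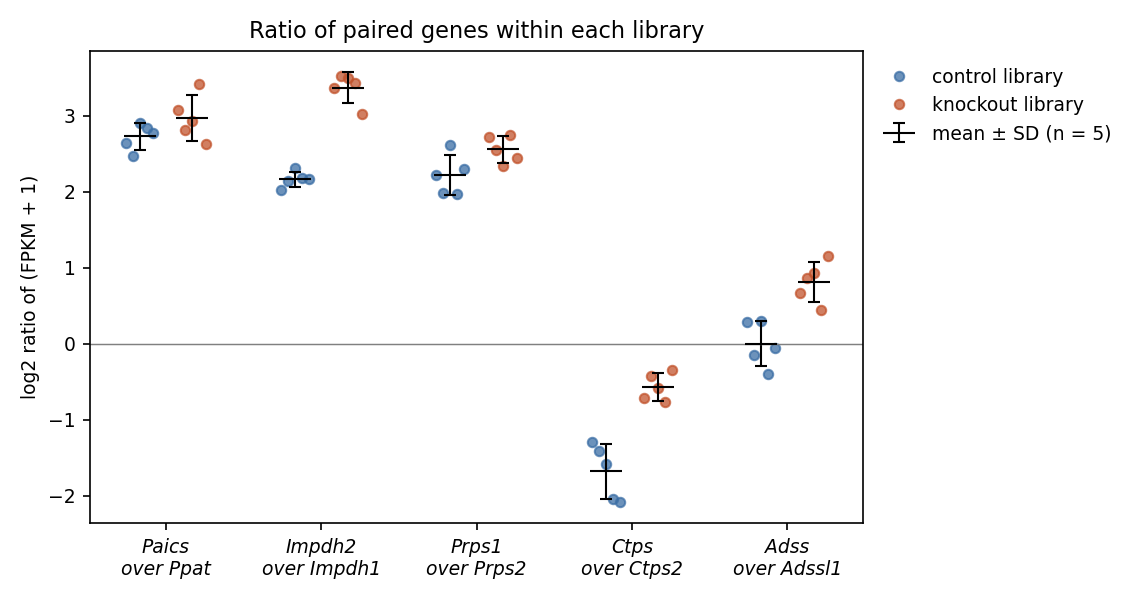
Log2 ratio of (FPKM + 1) for 5 pairs of genes within each control and knockout library, with black bars for the mean ± SD. Impdh2 over Impdh1, Ctps over Ctps2 and Adss over Adssl1 are higher in all 5 knockout libraries than in all 5 control libraries, and the other pairs overlap.

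Of 9 tested salvage genes 4 were called higher and 2 lower. Hprt, which recovers hypoxanthine and guanine with PRPP, rose from 111 ± 18.9 to 215 ± 12.2 FPKM (0.97, limma adjusted p = 2.62e-05), with no overlap between groups. The adenosine kinase Adk rose from 42.6 ± 9.32 to 63.2 ± 1.63 FPKM, the deoxycytidine kinase Dck from 18.5 ± 1.84 to 30.6 ± 2.84 and the uridine kinase Uck2 from 26.9 ± 7.62 to 39.8 ± 6.34. Uck2 lost its call with equal totals. Uckl1, a relative of the uridine kinases, fell from 61.6 ± 7.44 to 39.7 ± 4.29 FPKM and the uridine phosphorylase Upp1 from 18.4 ± 3.24 to 11.4 ± 2.26, and neither was called under median-of-ratios factors or the authors' scaling.

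Of 10 tested nucleotide kinases 4 were called higher and 0 lower, against 21.1% and 31.6% of all tested genes, each held under the 4 other scalings. Nme1, a nucleoside diphosphate kinase, rose from 76.5 ± 20.5 to 213 ± 35.7 FPKM (1.49, limma adjusted p = 1.97e-05) and its neighbour and close copy Nme2 from 108 ± 26.7 to 167 ± 38.0, though their reads can be hard to tell apart. The guanylate kinase Guk1 rose from 39.1 ± 9.74 to 56.3 ± 4.37 FPKM. With scores of bone matrix and granulocyte genes in the fit, Guk1 (0.38, limma adjusted p = 0.0876) and Nme2 (0.51, limma adjusted p = 0.0893) were not called, and Nme2 was not called without a filter (limma adjusted p = 0.0612).

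Of 8 tested genes of breakdown and interconversion 0 were called higher and 3 lower, where 31.6% of all tested genes were called lower. Gmpr, a GMP reductase that leads guanine nucleotides back to inosine monophosphate and so runs against Impdh2, fell from 32.8 ± 3.21 to 16.7 ± 3.76 FPKM (-0.96, limma adjusted p = 0.000111) and held under the 4 other scalings. Samhd1, which degrades deoxynucleotides, fell from 50.9 ± 7.56 to 30.4 ± 7.40 FPKM and was not called under the authors' scaling. The nucleotidase Nt5c3 was at 135 ± 16.0 and 107 ± 12.0 FPKM (-0.33, limma adjusted p = 0.0313, lost without WT2, WT4, CKO7, CKO8 or CKO13), and its change turned to 0.053 and 0.061, not called, under median-of-ratios factors and the authors' scaling.

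Of 9 tested regulators 2 were called higher and 5 lower. Among genes of E-box factors, Max fell from 27.2 ± 9.96 to 12.1 ± 3.46 FPKM (-1.08, limma adjusted p = 0.00178) and Mlxip from 26.1 ± 2.40 to 13.6 ± 4.75, each held under the 4 other scalings. Mlx, the dimer partner of the Mlxip protein, was level at 22.0 ± 2.69 and 21.8 ± 2.68 FPKM (-0.014, limma adjusted p = 0.934) and was called higher under median-of-ratios factors and the authors' scaling. Mycn fell from 71.4 ± 8.07 to 48.3 ± 16.8 FPKM (-0.61, limma adjusted p = 0.0134) and Myc from 234 ± 32.4 to 166 ± 48.8 (-0.53, limma adjusted p = 0.0311), and neither was called under median-of-ratios factors or the authors' scaling. Myc also lost its call without any single library of WT2, WT5, WT6, CKO8, CKO9 or CKO13, and without CKO13 its change was -0.35. Atf4, which drives one-carbon genes in stressed cells, was at 222 ± 20.6 and 168 ± 52.7 FPKM (-0.45, limma adjusted p = 0.0484), a call lost in 15 of 23 alternative settings, among them the removal of any library but CKO7 or CKO12. The chaperones Hspa8 and Hsp90aa1, which have been linked to the assembly of purine enzymes into clusters, rose from 2576 ± 343 to 3923 ± 626 FPKM and from 986 ± 215 to 1876 ± 206 FPKM.

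**Figure D5:**
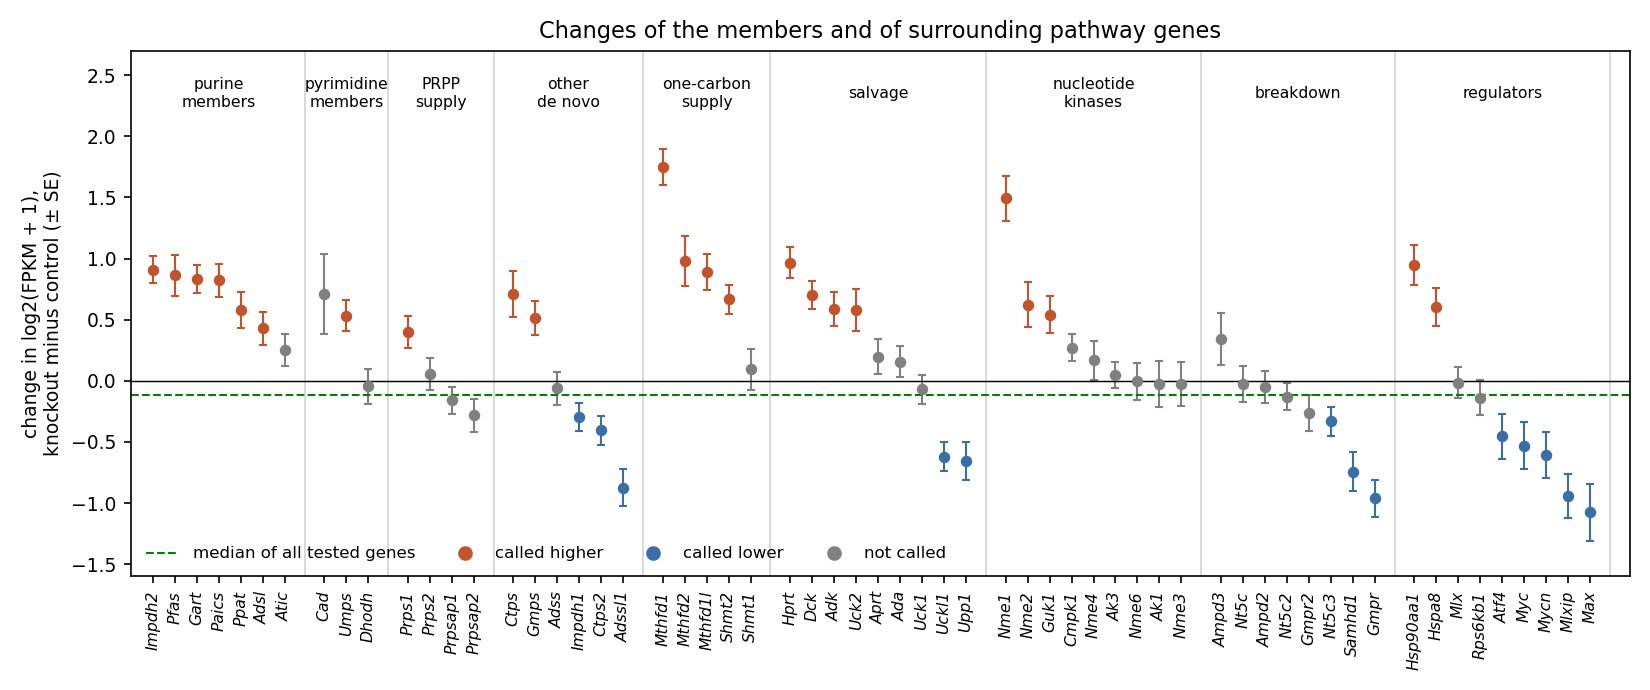
Change in log2 (FPKM + 1), knockout minus control, ± SE for the 10 members and the tested genes of the surrounding lists that are reported here, ordered within each list and coloured by call, with the median of all tested genes (-0.12) as a dashed line. One-carbon genes, all 7 purine members and the called kinases lie above it, and breakdown genes lie mostly near or below it.

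Below the filter were 16 listed genes, of which 9 were tested when 1 FPKM in at least 5 libraries was asked for, a setting that called 13.4% of 13448 genes higher and 36.4% lower. Of these 9 genes 1 was called higher and 4 lower. The 4 called lower were Aldh1l1, which burns the formyl folate that Gart and Atic use, from 12.1 ± 2.04 to 5.71 ± 1.75 FPKM (-1.0, limma adjusted p = 0.00118), Nt5e, an ecto-nucleotidase, from 2.02 ± 1.28 to 0.376 ± 0.283 FPKM, Xdh, which makes uric acid, from 15.7 ± 8.33 to 6.5 ± 3.51 FPKM, and Ak4, from 4.16 ± 0.701 to 2.87 ± 0.602 FPKM. These 4 genes are named because they passed that test.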

How the data were processed

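The submitters' processing notes list the tools HTSeq, Cufflinks 2.1.1 and Bowtie 0.12.9 with no role for each, and mm10 as the build. The deposited library columns were taken as FPKM made by the authors, a unit that the header does not name and that was inferred from the values. Column names carry other numbers than the titles, and columns were therefore placed in groups but not tied to single samples. The authors' deposited log2 fold changes, their p-values and adjusted p-values, their Wald score and their mean normalized count signal come from DESeq2, per the file headers, with knockout over control by sign. Strand and counting settings are not given in the sources used here.

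FPKM were used as deposited. The 6913 genes that reached 10 FPKM in 5 or more of the 10 libraries were fitted as log2 (FPKM + 1) with limma 3.58.1 (R 4.3.3, trend and robust options, genotype only), with Benjamini-Hochberg adjustment over all of them. Fold changes on this scale understate those of low genes. Exact permutation tests are two-sided (scipy 1.17.1) and, for single genes, not adjusted. The fit was tested on simulated data. Coordinates and exon lengths come from GENCODE M21, which shares its assembly with mm10, and 52097 identifiers matched. Named were all members, both genes of 5 pairs, and each listed pathway gene that passed the test, except 2 that are counted but not reported here. The members and lists were chosen with earlier results of these data known. Alternatives covered filter, pseudocount, scaling, moderation, library weights, covariates and each library left out.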

Additional observations from a re-analysis of the deposited data

Results flagged for a closer look

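Cad in WT4, at 5.42 FPKM, lay far below the other 4 control libraries (12.2 to 15.5 FPKM). Cad in CKO12, at 8.47 FPKM, lay far below the other 4 knockout libraries (20.3 to 24.6 FPKM), and so did Pfas in CKO12, at 15.2 FPKM against 22.0 to 24.8 FPKM. In each case the gap to the nearest library was more than 0.71 of the range of the group on the log2 scale, the 95% critical value of Dixon's test for 5 samples. Of 86 groups checked 3 stood out in this way, and chance alone gives about 5% of groups.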

How the results depend on the processing

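Between 7 and 8 members were called higher with each library left out in turn, and 0 were called lower in any setting. Gart, Paics, Impdh2, Pfas and Umps kept their call in every alternative that gave a value for them, and Ppat lost it only when scores of bone matrix and granulocyte genes entered the fit (0.45, limma adjusted p = 0.0503). Adsl, Prps1, Gmps, Guk1, Nme2 and Atf4 lost their call in that fit too, and Adsl, Prps1, Uck2, Nme2, Impdh1, Nt5c3, Myc, Mycn and Atf4 lost theirs without a filter. The number of all tested genes called higher was 954 with those scores, 3053 under median-of-ratios factors and 2991 under the authors' scaling. The number called lower was 4523 without a filter, 4890 with a filter of 1 FPKM, 1263 with one of 20 FPKM, and 816 and 819 under those 2 scalings. There 30 and 29 pathway genes were called higher, against 44.2% and 43.3% of all tested genes, and 5 and 4 lower. Under median-of-ratios factors the sign turned for Dhodh (0.33), Adss (0.32), Impdh1 (0.079) and Nt5c3 (0.053). Under the authors' scaling it turned for Dhodh (0.34), Adss (0.33), Impdh1 (0.088) and Nt5c3 (0.061), and these were not called there. The sign of Mlx (-0.014 without further scaling) turned under both, where Mlx was called higher. With each library left out, the difference in the ratio of Prps1 to Prps2 was 0.28 to 0.44, and without WT4 and CKO12 together it was 0.40 (exact permutation adjusted p = 0.0357). The cause of these differences was not tested, beyond the number of genes that each filter leaves. No paired analysis was possible because the columns carry other numbers than the sample titles. The unknown depth limits what can be said of the genes near the filter.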
